A study of Drosophila melanogaster with 2 samples.

Results

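Of the 3587 peaks in the thresholded list of MTF-1-GFP in fly embryos, 330 were intergenic and away from transcript starts, a share of 9.20% (95% exact interval 8.27 to 10.2%). A peak was counted when its summit, the base of highest signal, lay more than 1000 bp from every annotated transcript start of any biotype and inside no annotated transcript. Neither condition used the size of a peak's signal, although the signal places the summit. Of the other peaks, 2219 lay within 1000 bp of a start, 678 lay inside a transcript 1000 to 5000 bp from a start, and 360 lay inside a transcript and farther away. In the pooled list, where regions were not thresholded, 5170 regions met the same rule. The thresholded list kept 330 of these (6.38%, interval 5.73 to 7.08%), while it kept 12.0% of all 29999 pooled regions on the 6 chromosomes examined (2L, 2R, 3L, 3R, 4 and X).

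The data were chromatin immunoprecipitation sequencing (ChIP-seq) of whole Drosophila melanogaster embryos aged 0 to 24 h, with males and females pooled. The embryos came from 1 transgenic line that stably expresses MTF-1 fused to a C-terminal GFP, and chromatin fragments measured 200 to 800 bp. There was 1 group, with biological replicates numbered 2 and 4, and no group without the tag was named. Title, assay and antibody labels describe immunoprecipitates of MTF-1, whereas the free-text description calls both samples input controls. The samples were taken as immunoprecipitates here. Whole embryos mix cell types, the labels do not state separate crosses for the replicates, and the read depth is unknown because the lists hold no counts.

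MTF-1, metal-responsive transcription factor 1, has zinc fingers that recognise DNA sites called metal response elements (MREs), through which it activates metallothionein and metal transporter genes when cells meet an excess of zinc, copper or cadmium. MREs share the core TGCACNC or TGCGCNC, where N is any base. Intergenic DNA far from promoters holds enhancers, insulators and Polycomb response elements, and in the fly the genes for developmental transcription factors sit in some of the longest intergenic stretches.

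The windows below show what the summits looked like, each reaching 50 bases to either side of the summit in dm6, + strand. The first 6 held an MRE core on either strand, shown in capitals. Of these, 5 are the strongest members with a core on the chromosome arms printed here, and the last flanks Fer2LCH, a documented MTF-1 target. The next 2 are the strongest members with GCAAACA, also in capitals, and no core. The final window, the strongest member of all, held neither. In order they lie at chr3R:16798815-16798915, chr2L:3832480-3832580, chr2L:1643441-1643541, chr3L:724567-724667, chr2L:14502719-14502819, chr3R:30391164-30391264, chr4:497841-497941, chr2L:1648750-1648850 and chr3R:12403093-12403193.
abd-A region: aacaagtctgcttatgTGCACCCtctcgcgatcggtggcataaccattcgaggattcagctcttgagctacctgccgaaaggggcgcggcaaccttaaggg
slp1 to slp2: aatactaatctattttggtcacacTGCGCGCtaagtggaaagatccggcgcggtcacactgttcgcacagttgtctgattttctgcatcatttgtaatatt
chinmo region, core: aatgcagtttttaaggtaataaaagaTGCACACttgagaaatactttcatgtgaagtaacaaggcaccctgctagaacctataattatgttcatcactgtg
hng3 region: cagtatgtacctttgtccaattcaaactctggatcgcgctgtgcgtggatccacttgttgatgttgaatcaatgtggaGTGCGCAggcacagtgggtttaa
noc region: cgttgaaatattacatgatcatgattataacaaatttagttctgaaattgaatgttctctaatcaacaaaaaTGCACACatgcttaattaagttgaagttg
Fer2LCH: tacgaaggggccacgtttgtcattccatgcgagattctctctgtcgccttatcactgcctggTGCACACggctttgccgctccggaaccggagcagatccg
zfh2: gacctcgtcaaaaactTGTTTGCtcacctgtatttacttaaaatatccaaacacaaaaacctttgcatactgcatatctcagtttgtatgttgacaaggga
chinmo region, GCAAACA: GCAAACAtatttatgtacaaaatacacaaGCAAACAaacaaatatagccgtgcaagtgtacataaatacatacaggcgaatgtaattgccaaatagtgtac
Sol1 to Cyp9f2: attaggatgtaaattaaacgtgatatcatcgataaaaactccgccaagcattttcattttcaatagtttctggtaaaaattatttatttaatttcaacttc

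Most intergenic peaks were of middling strength. Their median signal, the authors' enrichment value for a region, was 150 (quartiles 121 and 207), against 154 over all thresholded peaks. The lowest member had 104 and the highest 1170. Members made up 18 of the 300 strongest peaks, fewer than their share of 9.20% of the list would give. Peaks within 1000 bp of a start, 61.9% of the list, made up 215 of these 300. Of the members, 158 (47.9%) lay in the stronger part of the list when it was split at its median. The list is ranked by this value: it held exactly the 3587 strongest regions of the pooled list, so the lower end of the range is set by where the authors ended the list. Median signal differed little with distance from a start: it was 149 for the 87 members at 1000 to 2000 bp, 154 for the 126 at 2000 to 5000 bp, 150 for the 69 at 5000 to 10000 bp and 149 for the 48 farther out.

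**Figure D1:**
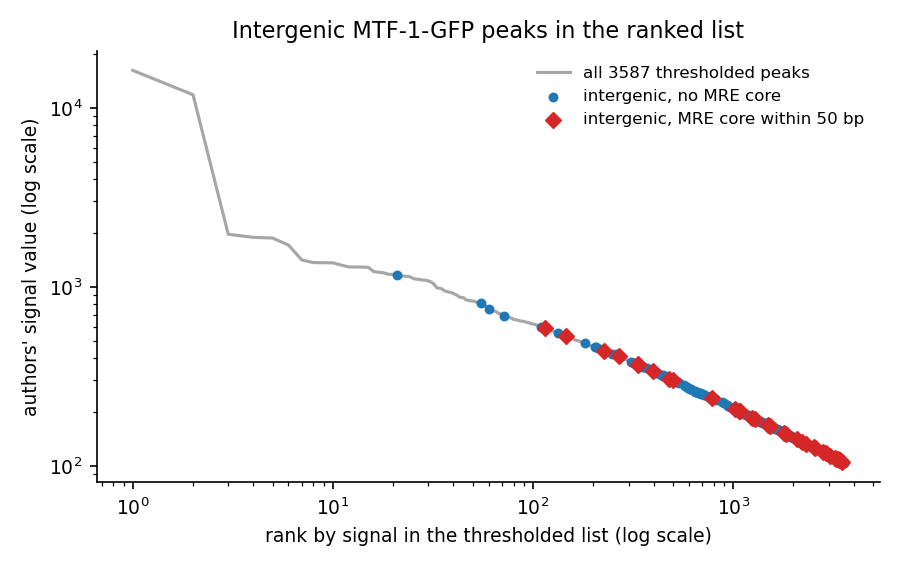
Signal value (y axis, log scale) against rank (x axis, log scale) for all 3587 thresholded peaks (grey line), with the 330 intergenic members marked by whether an MRE core lay within 50 bp of the summit. Members start at rank 21 and lie along the rest of the list, and members with a core start at rank 115.

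The strongest member ranked 21 in the thresholded list, with a signal of 1170, at chr3R:12403093-12403193 around its summit. It lay in a gap of only 437 bp between the 3′ ends of Sol1 and of Cyp9f2, a cytochrome P450 gene. The nearest transcript start, of DNAlig3 (DNA ligase III), was 1304 bp away. Signals of the replicate lists have scales of their own (a median of 69.2 over the 3587 strongest regions of replicate 2 and of 95.0 for replicate 4), so directions between replicates are read from ranks. In the replicates' own lists it had a signal of 327 in replicate 2 (rank 60) and of 844 in replicate 4 (rank 12). The window was AT-rich, with a GC content of 25.7%.

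The next member, rank 55 with a signal of 811, lay on chromosome 4, 3919 bp upstream of zfh2, which encodes a zinc finger homeodomain factor. It had a signal of 362 in replicate 2 (rank 45) and of 452 in replicate 4 (rank 64), and it was the highest member of replicate 2. Chromosome 4 held 4 members among 8 thresholded peaks. Rank 60 (signal 756) lay between the 3′ ends of blw, an ATP synthase subunit gene, and CycB, the gene of the mitotic cyclin B. Rank 72 (signal 684) lay between COX7AL2, named for a cytochrome c oxidase subunit, and CG31668. Both ranked higher in replicate 4, at ranks 55 and 50, than in replicate 2, at ranks 89 and 242.

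Ranks 110 to 146 brought members of different settings. Rank 110 (signal 594) lay 27380 bp beyond Su(z)2, a Polycomb group gene, and 11965 bp from the start of CG13323. Rank 115 (signal 586) lay in a 520 bp gap between the 3′ ends of CG30089 and Zasp52, a gene of the muscle Z-disc, and carried the core TGCGCAC 14 bp from its summit. Rank 133 (signal 555) lay 58 bp past the end of CG11349. Rank 146 (signal 529) lay between Glut3, named as a glucose transporter, and the Hox gene abd-A, in the bithorax region and 1735 bp before lncRNA:CR45750. That last member carried TGCACCC, and it ranked higher in replicate 2 (rank 79, signal 303) than in replicate 4 (rank 387, signal 212).

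The remaining ones among the 15 strongest had signals between 420 and 484. They lay at CG43131 (rank 182), past the end of Inx2, a gap junction gene (rank 203), upstream of chinmo, a BTB zinc finger factor (rank 206), between RYBP, which encodes a Polycomb-associated protein, and Ppa, an F-box gene (rank 215), between the pair-rule forkhead genes slp1 and slp2 (rank 225), upstream of foxo, the forkhead factor of insulin signalling (rank 248), and near CG10651 (rank 259). The slp1 to slp2 member had a signal of 161 in replicate 2 (rank 304) and 290 in replicate 4 (rank 188). Its window held TGCGCGC next to GGTCACAC, the site of the promoter factor M1BP, which was found on either strand in 2 of the 330 member windows, in 1.37% of all thresholded peaks and in 0.129% of weak regions. All 15 strongest were among the 3587 strongest regions of each replicate, and 3 of the 15 had a core. By rank, the CG10651 member differed most between the replicates among these 15, with a signal of 302 in replicate 2 (rank 81) and 107 in replicate 4 (rank 1434).

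The replicates did not place the members alike. Among the 330 members, 204 (61.8%, interval 56.3 to 67.1%) overlapped one of the 3587 strongest regions of replicate 2, where 70.7% of all thresholded peaks did. The count was 294 (89.1%, interval 85.2 to 92.2%) for replicate 4, where the share over all thresholded peaks was 83.5%. With any region of the replicate's list, whatever its rank, 310 and 328 members overlapped. Since the thresholded list comes from the same reads as the replicate lists, these are shares of agreement between lists, not independent tests.

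Base composition moved with this difference. The 181 members among the strongest of both replicates had a mean GC content of 39.4% within 50 bp of the summit, and their median signal was 195. The 113 members that were among the strongest of replicate 4 alone had a GC content of 34.9% and a median signal of 126. The 23 of replicate 2 alone had 42.4% GC, and the 13 among the strongest of neither had 45.2%. Replicate 4 alone accounted for 34.2% of members and 24.5% of all thresholded peaks, and replicate 2 alone for 6.97% and 11.7%. Whether base composition accounts for the replicate difference was not tested.

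**Figure D2:**
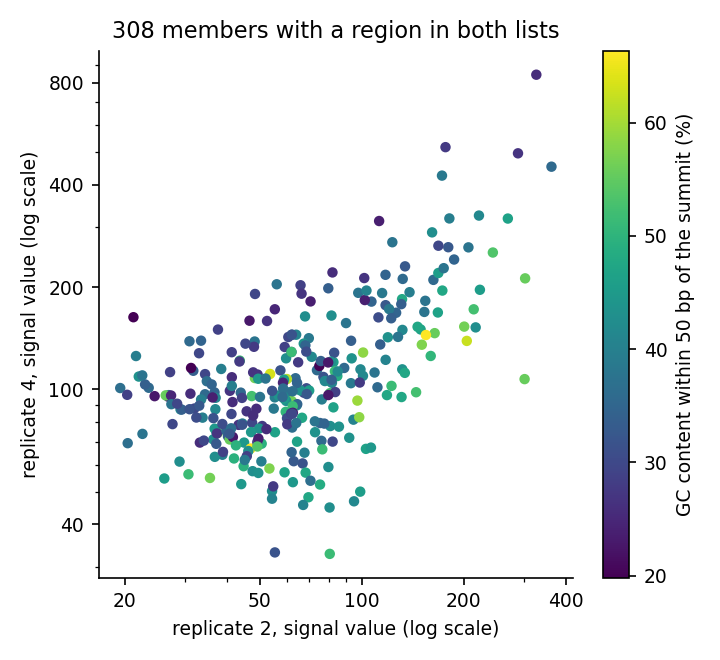
Signal of replicate 2 (x axis, log scale) and of replicate 4 (y axis, log scale) for the 308 members with a region in both replicate lists, coloured by GC content around the summit. The members rise together with wide scatter (Pearson r of 0.58 on log2 values). Members among the strongest of replicate 4 alone had a mean GC content of 34.9%, and those of replicate 2 alone 42.4%.

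Over the 308 members with a region in both lists, log2 signals had a Pearson r of 0.58 and a Spearman rho of 0.50, and r was 0.55 without the 2 members farthest from the median of replicate 2. The points share the pooled list that chose them. The same contrast showed in each replicate's own intergenic regions: of its 3587 strongest regions, 302 (8.42%) of replicate 2 and 372 (10.4%) of replicate 4 met the rule. Mean GC content within 50 bp of the summit was 42.5% for the former and 35.7% for the latter, against 40.3% and 40.6% in windows of the same length 500 bp to either side. Members had 38.3% at the summit and 40.4% at the sides, while weak regions, described next, had 44.1% and 40.6%. Regions of replicate 2 were wider, with a median of 524 bp against 344 bp in replicate 4.

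**Figure D3:**
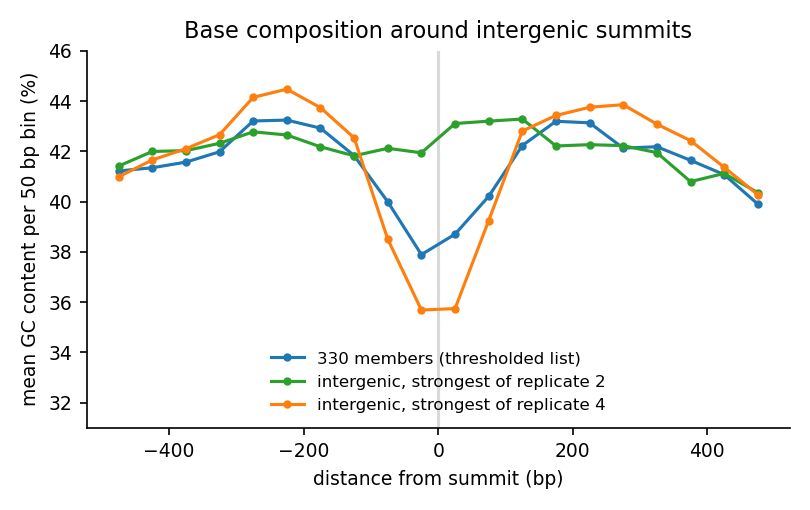
Mean GC content per 50 bp bin (y axis) by distance from the summit (x axis) for the 330 members and for the intergenic regions among the 3587 strongest of each replicate. Replicate 4 dips to 35.7% at the summit, replicate 2 shows no dip, and the members lie between them at 37.9%.

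As a background, 3095 weak regions were taken that met the same position rule, had a signal below the median of the pooled list and overlapped no thresholded peak. Members lay somewhat closer to starts than these. The median distance to the nearest start was 3571 bp for members (1001 to 37221 bp) and 4176 bp for weak regions. Of the pooled candidates at 1000 to 2000 bp, 7.97% were kept in the thresholded list (interval 6.44 to 9.74%), against 5.32% (4.17 to 6.69%) at 5000 to 10000 bp. The farthest member, rank 2314 with a signal of 133, lay 37221 bp from the start of CG43245. Just inside the limit of 1000 bp were members 1001 bp from CG43131 (signal 371) and 1003 bp from CG11964 (signal 168), and just outside it were peaks 990 bp from Dll (signal 116) and 983 bp from ph-d (signal 151).

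**Figure D4:**
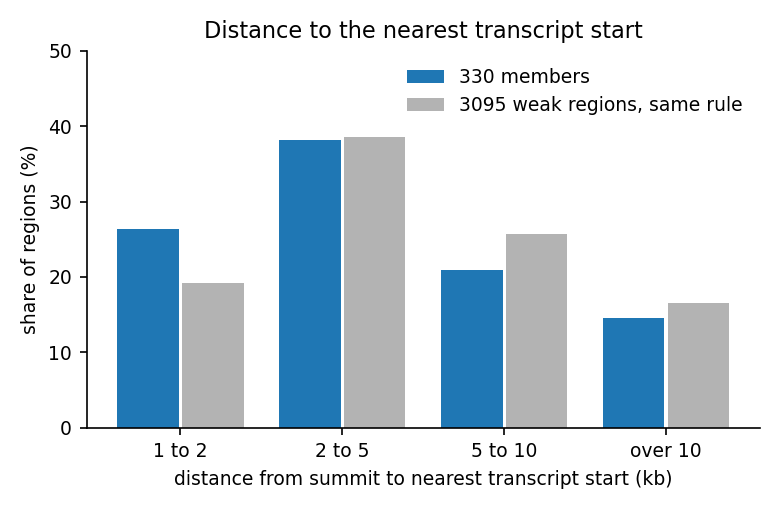
Share of regions (y axis) by distance from the summit to the nearest transcript start (x axis) for the 330 members and the 3095 weak regions under the same rule. Members at 1000 to 2000 bp were 26.4% against 19.2% of weak regions, and at 5000 to 10000 bp 20.9% against 25.7%.

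Of the 330 members, 38 (11.5%) lay within 500 bp of a transcript end, more often than the weak regions under the same position rule (5.75%) and less often than all thresholded peaks (14.4%), of which those at starts had 19.6%. Among all pooled candidates, 11.1% of those within 500 bp of an end were kept (38 of 341, interval 8.01 to 14.97%) and 6.05% of those farther away (292 of 4829, interval 5.39 to 6.76%). Position near an end and distance to a start both depend on the length of the gap, and their parts were not tested. The strongest were the Cyp9f2, Zasp52, CG11349 and Inx2 members above and rank 269 (signal 410), 87 bp past the end of wech. Orientation of the flanking genes gave no such difference: 23.3% of members lay between divergent genes, 25.5% between convergent and 51.2% between tandem ones, and the shares of weak regions were 23.3%, 25.8% and 50.9%. A single member (0.303%) lay in an annotated transposable element, against 0.452% of weak regions.

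Members took 242 of the 4793 intergenic intervals long enough to hold one (5.05%), and these were long, with a median length of 10641.5 bp against 3107 bp over all. A longer interval has more room for a summit, so this contrast does not set members apart from other intergenic regions. A single member lay in 185 intervals, 2 lay in each of 35, and 22 held 3 or more. By chromosome, 3L held 115 members (34.8%), where it held 21.8% of all thresholded peaks and 29.7% of the pooled candidates. That came to 13.6 members per Mb of sequence allowed by the rule, against 9.81 per Mb overall and 6.54 per Mb on X. The share of candidates kept was 7.48% on 3L and 6.67% on X.

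The densest groups between neighbouring protein-coding genes were on 3L, 2L and X, and are named after their counts were seen. Both CG6168 to CG6163 and hng3 to CG13898, on 3L, held 7 members, with highest signals of 352 and 193. The 5 members between RFeSP and chinmo were the strongest group, with signals of 459, 368, 269, 147 and 144. The 3 highest of them were among the strongest of both replicates, and the lower pair ranked 6723 and 4192 in replicate 2 but 1684 and 2132 in replicate 4. Another 5 lay between NijA and CG43245 in a gap of 75047 bp, and 5 lay within 4479 bp between dnc, a cAMP phosphodiesterase gene, and the growth regulator Myc. Over all members, 6 overlapped another member, and some of these lay in the groups above. Between NijA and CG43245 the members with signals of 190 and 150 overlapped. Both matched the same region in replicate 2 (rank 2252) and in replicate 4 (rank 826), so the count for that gap includes overlapping peaks. The strongest member between dnc and Myc (signal 197) was 344 bp wide, and its nearest peak was 201 bp away.

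Metal genes flanked few members, at counts too small to set apart from the 3.03% of the 13945 protein-coding genes that flanked one. Of 13 documented MTF-1 targets, Fer2LCH, the ferritin light chain gene, flanked a member. That member ranked 1021, outside the ranks used for naming list genes, and is given because it is the only one. It had a signal of 207, 100.8 in replicate 2 (rank 817) and 128 in replicate 4 (rank 1029), and carried TGCACAC 15 bp from its summit. The summit lay 630 bp past the 3′ end of Fer2LCH and 2075 bp from its start. The nearest other thresholded peak was 1881 bp away. None of 6 metallothionein, 17 zinc transport and 8 copper genes flanked a member, and Fer2LCH was also the only one of 13 iron genes. In the pooled list 19 candidates were flanked by a documented target, of which 1 was kept, and 4 were flanked by a metallothionein gene and 2 by a zinc transport gene, none of which were kept. Of 13 glutathione and redox genes, Gclm, which encodes the modifier subunit of glutamate-cysteine ligase, and Prx2 each flanked a low-ranked member, with signals of 125 and 107. None of 18 heat shock genes did.

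Genes of developmental transcription factors were frequent flanks of members and of weak regions alike. Of 76 such genes, 26 (34.2%) flanked a member, against 3.03% of protein-coding genes, but 78.9% of them flanked a weak region, against 14.6% of protein-coding genes. Counted over regions, 516 pooled candidates were flanked by one of these genes and 39 of them (7.56%, interval 5.43 to 10.2%) were kept, near the 6.38% of all candidates. For 24 segmentation genes, en, hry, slp1, slp2 and wg flanked members, and 8 of their 154 candidates (5.19%, interval 2.27 to 9.98%) were kept. Among 8 Hox genes abd-A did, with 1 of 15 candidates kept, and none of 15 neural bHLH genes did. These shares were read as no more than the background.

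Those of the 600 strongest peaks that flanked a developmental gene had signals from 275 to 811. Beside zfh2, abd-A and slp1 to slp2, they included a member 9636 bp from croc, a forkhead factor of the head (signal 378). One between CG5214 and pros, the homeodomain factor of neural precursors (signal 333), lay 59266 bp from pros and 201 bp from lncRNA:CR31386. One lay between Sox21b and D, a pair of Sox genes (signal 321), 43065 bp from Sox21b. One between hth, a homeodomain cofactor of Hox proteins, and CG6465 (signal 291) lay 25526 bp from hth and 10466 bp from CG6465. The last lay 16439 bp from SoxN (signal 275). The croc member ranked 438 in replicate 2 (signal 134) and 322 in replicate 4 (signal 230). The pros member ranked 465 (signal 131) and 501 (signal 184). The Sox21b to D member ranked 587 (signal 117) and 371 (signal 217), and lay 1221 bp past the end of D. The hth member ranked 312 (signal 160) and 1070 (signal 125), the widest gap in rank of these 4.

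The Psc and Su(z)2 locus is named here after its values were seen, for the share of its candidates that were kept. Psc and Su(z)2, neighbouring paralogues of the Polycomb group, were the only genes of an 18-gene list of Polycomb, trithorax and insulator genes that flanked members. Together they flanked 7 members, with signals of 594 and 172 beyond Su(z)2 and of 408, 299, 207, 132 and 117 flanked by Psc. Most were not close to these genes. The 172 member lay 7819 bp from Su(z)2. The 299 and 207 members lay 10025 and 10789 bp from Psc but 2878 and 2114 bp from CG33798. The 408 member lay 7780 bp from Psc and 2505 bp from CG13321, and the 132 and 117 members lay 6707 and 6493 bp from Psc. By gene that was 2 of 18 (11.1%), against 3.03% of all protein-coding genes. Of 23 candidates flanked by genes of this list, 7 (30.4%, interval 13.2 to 52.9%) were kept, against 6.38% of all 5170 intergenic candidates. The weakest pair flanked by Psc overlapped and matched the same region in each replicate. The 7 members share 1 locus, so they are not independent examples. Other lists were near the share of all coding genes: 3 of 88 cytosolic ribosomal protein genes (3.41%), 7 of 230 chemoreceptor and odorant-binding protein genes (3.04%) and 3 of 70 Cpr cuticle genes (4.29%) flanked a member, and none of 73 mitochondrial ribosomal protein genes or of 12 other cuticle genes did.

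Some genes beside members also had a peak at their own start. Of 423 protein-coding genes that flanked a member, 94 (22.2%, interval 18.3 to 26.5%) had a thresholded summit within 1000 bp of a start. The share was 17.0% over all 13945 protein-coding genes and 13.7% over the 2036 that flanked a weak region. With the strongest regions of replicate 2 alone it was 25.1% (interval 20.8 to 29.9%) against 16.4% of all coding genes. With those of replicate 4 alone it was 19.8% (16.3 to 23.7%) against 16.8%. In the stronger part of the list it was 13.5% (9.46 to 18.4%) against 9.54%. The last 2 intervals include the share of all coding genes. Peaks overall had a nearest neighbouring peak at a median of 4858 bp and members at 5717 bp.

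An MRE core lay within 50 bp of the summit, on either strand, in 33 of the 330 members (10%, interval 6.98 to 13.8%), where it did in 11.4% of all thresholded peaks, 12.2% of peaks at starts and 8.59% of weak regions. In windows of the same length moved by 500 bp it was found in 9.09% on the left and 3.94% on the right. The summits exceeded the mean of both sides (6.52%) by 3.48 percentage points, nearly all of it over the right side. This excess fell to 1.82 points with protein-coding transcripts alone and to 1.52 points within 25 bp. For the intergenic regions of replicate 2 the core share was 11.3% at summits and 6.13% at the sides, and for those of replicate 4 it was 9.95% and 6.32%. Cores were spread over the surrounding sequence without a peak at the summit. The commonest form was TGCACAC, with 9 sites, followed by TGCACGC with 6. Members with a core had a median signal of 168 (quartiles 120 and 302) and those without 149 (121 and 205). Among the 50 strongest members 9 had a core (18.0%, interval 8.58 to 31.4%), while 10.8% of members in the stronger part of the list did (6.39 to 16.7%). Equally strong peaks of other classes were not compared. Beside those described above, the 10 strongest with a core included members near wech and Aldh-III (TGCACCC, signal 410), LS2 and CG3092 (TGCGCCC, 369), Rh5 (TGCGCCC, 302) and Jhbp1 (TGCGCGC, 239). Of pooled candidates with a core, 7.30% were kept (interval 5.08 to 10.1%), against 6.38% of all.

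Another sequence feature at the summits was the motif GCAAACA, of the type bound by forkhead factors. It lay within 50 bp of the summit on either strand in 33 members (10%, interval 6.98 to 13.8%), and in 3.94% and 3.03% of the windows to the left and right. Weak regions held it in 3.84% and all thresholded peaks in 7.42%. Peaks at starts held it in 4.42% and those deep inside transcripts in 13.1%. It was picked after every one of the 2080 possible 6-mers had been ranked by how much commoner it was at the summits than at the sides, so these shares describe the data that picked it. In that ranking GCAAAC held place 5 for members, where AAATAT led, place 1 for the intergenic regions of replicate 2 and place 49 for those of replicate 4. GCAAACA was found in 10.9% of the summit windows of replicate 2 and 2.98% at their sides, and in 7.80% and 4.44% for replicate 4. Only 3 members had both GCAAACA and a core.

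**Figure D5:**
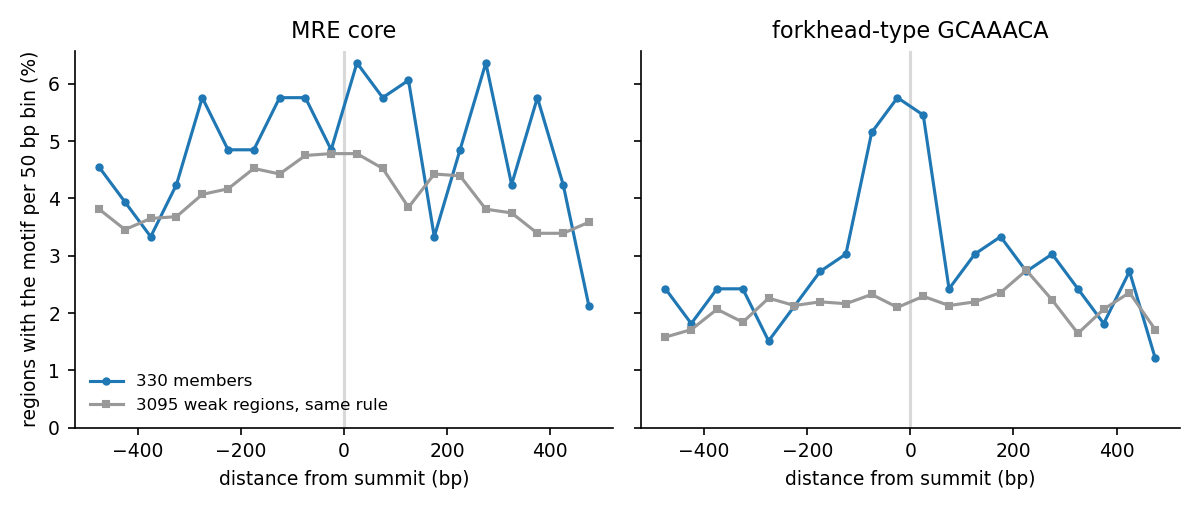
Share of regions with an MRE core (left) or GCAAACA (right) per 50 bp bin (y axis) by distance from the summit (x axis), for the 330 members and the 3095 weak regions. GCAAACA rises to 5.76% of members next to the summit and stays near 2.10% in weak regions there, while the core shows no rise confined to the summit.

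Members with GCAAACA were not stronger than the others by much, with a median signal of 155 against 149, and their mean GC content was 40.6% against 38.0%. The strongest were the zfh2 member, the chinmo member of rank 206 with 2 copies in its window, and the members at CG4218 to CG3473 (rank 413, signal 332) and Sox21b to D. Of pooled candidates with the motif, 12.8% were kept (33 of 258, interval 8.97 to 17.5%), against 6.38% of all candidates. The kept candidates are the same members whose summits picked the motif, so this share is not separate evidence. The AT-rich 6-mer AAATAT, picked in the same ranking, was found in 25.6% of all thresholded peaks and 29.4% of those deep inside transcripts. Among members it was found in 31.8% of summit windows and 19.1% of side windows. In replicate 4 the shares were 32.5% and 19.9%, and in replicate 2 they were 24.5% and 21.0%, so this feature moved with the replicate that had the AT-rich summits.

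Insulator motifs were rare but more frequent at members than beside them. The CTCF motif AGNNGGCGC, searched on both strands, lay at 12 summits (3.64%, interval 1.89 to 6.27%), in 0.606% of side windows, 2.68% of all thresholded peaks and 1.36% of weak regions. The shares were 3.97% for replicate 2 and 2.96% for replicate 4, with 0.662% and 0.941% at the sides. The strongest of these members, named after they were seen, lay between Sid and snu (signal 378) and between soti and cv-c (358). The Su(Hw) motif lay at 5 summits (1.52%, interval 0.494 to 3.50%), which included the zfh2 and Zasp52 members, and in 0.152% of side windows. It was found in 0.530% of all thresholded peaks, 0.420% of weak regions and 1.39% of peaks deep inside transcripts. The promoter motif DRE (TATCGATA) was found at 2 summits, against 1.56% of all thresholded peaks. GAGAGAG lay at 7 summits (2.12%, 1.36% at the sides and 3.35% of all peaks) and the homeodomain core TAATTA at 22 (6.67%, 6.52% at the sides and 5.60% of all peaks). The replicates went opposite ways for both. GAGAGAG lay at 2.98% of summits and 1.32% of sides in replicate 2, and at 0.806% and 1.61% in replicate 4. TAATTA lay at 3.97% and 6.13% in replicate 2, and at 8.33% and 7.26% in replicate 4. TATAAA lay at 18.2% of summits, in 13.8% of side windows and in 9.95% of weak regions. All thresholded peaks held TATAAA in 14.999% and those deep inside transcripts in 18.3%, near the share of members. Its share of the summits was 21.8% in replicate 4 and 13.9% in replicate 2. The second forkhead-type motif, TAAACA, also picked after the ranking, lay at 16.1% of summits, in 10.2% of side windows and in 17.2% of all peaks. The motifs of Zelda (CAGGTAG), AP-1 (TGANTCA), heat shock factor (GAANNTTC), Caudal (TTTATGG), Pho (GCCATNTT) and GATA factors (AGATAA) and the E-boxes CAGCTG and CATATG were no commoner at the summits than at the sides. A motif match describes the letters in the window and does not show which protein was bound.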

How the data were processed

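The deposited peak lists were made by the authors from the reads of replicates 2 and 4. Each region in the deposited lists has an enrichment signal and a −log10 of its q-value, by the layout of their peak format. For the aligner, peak caller and threshold, nothing is given in the sources used here. The 4 lists are 1 for each replicate, 1 pooled and 1 thresholded. The scale of the signal is not stated, so directions between lists were read from ranks. A shared file named as a source of each list was not analysed here.

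Summits were placed on dm6 with the Ensembl release 115 annotation (BDGP6.54) without transposable elements, and sequences were read from the RefSeq copy of the same assembly. Windows of 50 bp to each side of the summit were searched for 20 motifs on both strands, and 4 more after the 6-mer ranking. Python 3.11.15, numpy 2.4.6 and scipy 1.17.1 were used. Intervals are exact Clopper-Pearson intervals at 95%, treat regions as independent and cover counting error only. Regions overlapped when they shared a base.

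Described individually are the 15 strongest members, the 10 strongest with a core, those among the 600 strongest peaks flanked by metal or developmental genes, and those at the distance limits. Others named with a gene list, a cluster or a motif were chosen after their values were seen. Members and lists were chosen with earlier results of these data known. Of the 17 gene lists, 6 symbols were found under another name and GSS1 and GSS2 were not found. Positions and motif searches were tested on simulated data.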

Additional observations from a re-analysis of the deposited data

How the results depend on the processing

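Of 72 values recomputed under 11 other settings, 57 stayed within the interval of the value given (for the count of members, within 1.5 times it), 15 moved and none reversed. With a start distance of 500 bp, 30.4% of flanking genes had a start peak (such members can themselves be start peaks) and the median distance was 2344.5 bp. With 2000 bp the median was 4859 bp, and with protein-coding transcripts alone 5194 bp. In the stronger part of the thresholded list 158 members remained, with a median signal of 215, with 88.6% and 99.4% among the strongest of replicates 2 and 4, and with start peaks at 13.5% of flanking genes, where 9.54% of all protein-coding genes had one. The core excess over the sides (3.48 points, interval 0.469 to 7.24, which takes the side share as fixed) ran from 1.52 points within 25 bp, through 1.82 with protein-coding transcripts alone, to 6.67 within 100 bp, and its interval reached below 0 with 2000 bp, with protein-coding transcripts alone, in the stronger part of the list, within 25 bp and with sides at 1000 bp. A core was found in 4.55% of members within 25 bp and 20.3% within 100 bp, and GCAAACA in 6.06% and 16.7%. With overlap required over 0.5 of each region, 50.3% and 77.6% of members were among the strongest of replicates 2 and 4. Leaving out either replicate, by using the other's own 3587 strongest regions, gave 302 to 372 members, a core share of 9.95% to 11.3% and a median distance of 3423 to 3569 bp. No paired analysis was possible because there was 1 group. Depth is unknown, and without an untagged group signal that does not depend on MTF-1 cannot be told apart.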
